A study of Mus musculus with 8 samples.

Results

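The 40 genes described here encode proteins that fold secretory and membrane proteins in the lumen of the endoplasmic reticulum (ER). They were chosen by symbol, 1 row each, out of 22923 symbols measured in mouse liver RNA, and all 40 were found with a value above 0 in every group. By role they fall into 7 subclasses, which are 4 Hsp70 and Hsp90 chaperones with their exchange factors, 7 J-domain co-chaperones and partners, 2 lectin chaperones, 12 members of the protein disulfide isomerase family, 4 oxidases and peroxiredoxin, 5 prolyl isomerases and 6 other folding factors.

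Livers came from mice labelled Xbp1-/-, with hepatic deficiency of Xbp1 (knockout), and from controls labelled Xbp1flox (flox), all of the strain C57BL/6. Mice of either genotype ate regular chow or, for 4 weeks, a high-fat diet given with a high-fructose corn syrup equivalent, which gives the groups knockout high fat, knockout chow, flox high fat and flox chow. Each group held 4 mice pooled into 2 libraries, and is represented here by 1 deposited value per gene. The sources used here name no Cre driver, age or sex. Values are RPKM, that is reads normalised to gene length and to the size of the library, so levels of different genes are compared per length. A change is log2((a + 1)/(b + 1)), in which the added 1 RPKM is a pseudocount. A gene is said to have risen or fallen when its value differed by at least 2-fold on that scale (log2 change of at least 1 or at most -1). With 1 value per group no test between conditions was possible, the spread between libraries is unknown, and no difference below has a replicate check.

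ER chaperones hold newly made chains until they fold, and disulfide isomerases form and rearrange the bonds between cysteines. Oxidases of the ERO1 type return the isomerases to their oxidised state, and prolyl isomerases turn the peptide bonds before proline. XBP1 drives transcription in the unfolded protein response and is made from messenger RNA that the sensor IRE1 splices, and many genes of this machinery are known targets of XBP1 or of the related sensor ATF6. Hepatocytes secrete most plasma proteins and depend on this machinery.

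The targeted gene checks the labels. Xbp1 was listed at 44.2 RPKM in knockout chow, against 112 RPKM in flox chow, and at 34.1 RPKM in knockout high fat, against 90.7 RPKM in flox high fat. Knockout livers thus held 39.6% of the flox level on chow and 37.6% on high fat, in the direction of the labels. The part of undeleted exons and of other liver cells in these values was not tested.

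Several members move together in the comparisons below, and their promoters were therefore read for the elements known to bind ATF6 with NF-Y, or XBP1. Promoter windows of 250 bases before to 50 bases after the start came from RefSeq on GRCm38.p6, a patch release of the mm10 assembly, and 35 of 40 members matched a window. The search covered both strands for the ER stress response element (ERSE, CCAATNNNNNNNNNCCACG), for ERSE-II (ATTGGNCCACG) and for the core of the unfolded protein response element (UPRE, TGACGTG). ERSE and ERSE-II both hold CCACG, and a UPRE core that is followed by G overlaps it. The 6 windows below are those with an exact match whose genes changed most on chow between the genotypes. Hspa5, the gene of the chaperone BiP, holds both an ERSE and a UPRE core; Creld2 (a stress-induced ER protein), Dnajc3 (the co-chaperone P58IPK) and Pdia6 (the isomerase P5) hold an ERSE; Txndc5 (the isomerase ERp46) holds a UPRE core; and Dnajb11 (the co-chaperone ERdj3) holds an ERSE-II. The windows lie at chr2:34771840-34772139 (plus strand, Hspa5), chr15:88819396-88819695 (plus strand, Creld2), chr14:118937682-118937981 (plus strand, Dnajc3), chr12:17266339-17266638 (plus strand, Pdia6), chr13:38527865-38528164 (minus strand, Txndc5) and chr16:22857595-22857894 (plus strand, Dnajb11). Capitals mark the matched letters, and each window is written in the direction of its gene.
Hspa5: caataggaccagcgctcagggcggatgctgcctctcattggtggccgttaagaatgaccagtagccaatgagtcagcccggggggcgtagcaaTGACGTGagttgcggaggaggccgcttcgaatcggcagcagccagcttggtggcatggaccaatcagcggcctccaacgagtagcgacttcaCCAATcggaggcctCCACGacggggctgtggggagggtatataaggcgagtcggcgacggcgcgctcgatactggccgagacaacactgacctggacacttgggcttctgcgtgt
Creld2: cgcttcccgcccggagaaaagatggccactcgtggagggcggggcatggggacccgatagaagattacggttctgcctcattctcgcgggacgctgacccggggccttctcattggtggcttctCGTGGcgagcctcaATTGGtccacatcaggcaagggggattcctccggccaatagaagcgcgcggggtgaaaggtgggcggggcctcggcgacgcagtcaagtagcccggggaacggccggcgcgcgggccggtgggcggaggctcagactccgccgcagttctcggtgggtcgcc
Dnajc3: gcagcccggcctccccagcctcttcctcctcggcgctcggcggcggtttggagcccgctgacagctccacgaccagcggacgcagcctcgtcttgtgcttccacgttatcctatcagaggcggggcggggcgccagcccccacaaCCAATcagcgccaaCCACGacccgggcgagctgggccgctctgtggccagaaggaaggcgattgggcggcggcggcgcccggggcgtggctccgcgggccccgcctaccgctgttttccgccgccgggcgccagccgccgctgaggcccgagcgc
Pdia6: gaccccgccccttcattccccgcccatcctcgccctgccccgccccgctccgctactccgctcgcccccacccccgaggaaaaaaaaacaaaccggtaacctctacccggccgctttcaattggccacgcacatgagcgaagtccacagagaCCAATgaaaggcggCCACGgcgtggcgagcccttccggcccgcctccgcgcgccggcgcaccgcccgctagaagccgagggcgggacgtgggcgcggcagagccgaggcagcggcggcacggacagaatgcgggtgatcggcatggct
Txndc5: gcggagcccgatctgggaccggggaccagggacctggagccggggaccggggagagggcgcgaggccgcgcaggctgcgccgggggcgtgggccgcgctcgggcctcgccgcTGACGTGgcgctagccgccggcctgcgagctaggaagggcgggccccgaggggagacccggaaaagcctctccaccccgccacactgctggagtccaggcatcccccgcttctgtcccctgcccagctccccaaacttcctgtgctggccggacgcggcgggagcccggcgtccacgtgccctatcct
Dnajb11: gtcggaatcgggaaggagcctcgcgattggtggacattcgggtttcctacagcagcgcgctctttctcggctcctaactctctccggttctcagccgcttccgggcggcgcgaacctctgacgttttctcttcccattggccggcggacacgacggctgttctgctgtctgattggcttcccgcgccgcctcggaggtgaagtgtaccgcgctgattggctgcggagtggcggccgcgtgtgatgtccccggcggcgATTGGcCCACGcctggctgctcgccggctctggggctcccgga

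An exact ERSE was found in 8 of 35 members, Hspa5, Hsp90b1, Dnajc3, Calr, Canx, Pdia6, Ero1lb and Creld2. Among all 27025 genes with a window, 0.137% held one. In Hspa5 the ERSE lies 65 to 47 bases before the start, and in Creld2 on the opposite strand 126 to 108 bases before it. The UPRE core was found in Hspa5, Txndc5, Txndc11 and Fkbp11, and in 2.22% of all genes. ERSE-II was found in Dnajb11 alone of the 35, and in 0.0444% of all genes. This match lies 7 to 17 bases after the start, and the UPRE core of Fkbp11 runs from the start to 6 bases after it. Together 12 of 35 members (34.3%) held at least 1 of these elements, against 3.35% of the 8202 other genes that passed the filter on low values and had a window. CCACG, the last letters of the ERSE, was present in 27 of 35 members (77.1%) and in 52.2% of those other genes. CCAAT, its first letters, was present in 26 of 35 members (74.3%) and in 43.0% of those other genes. A match is a description of letters and not evidence of binding.

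On chow, knockout livers held less RNA of most ER folding genes than flox livers. Of the 40 members 14 fell and 0 rose, where 1.37% of all 10322 genes compared fell and 0.252% rose. The median change of the members was -0.61, that of all genes -0.02, and 36 of 40 members had a lower value in knockout than in flox livers (54.2% of all genes). Summed over the members, the level was 1690 RPKM in knockout chow, against 2872 RPKM in flox chow, or 0.366% of the group's total, against 0.559%. In these bulk samples fewer cells of a type and less RNA per cell cannot be told apart.

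On the high-fat diet most members were lower in knockout livers too. Here 4 of 40 fell and 0 rose, beside 1.86% and 1.07% of 10327 genes, and all 4 had also fallen on chow (Erp44, P4hb, Dnajb9 and Cnpy3). The median of the members was -0.54, that of all genes -0.13, and 37 of 40 members had a lower value in knockout livers (70.1% of all genes). The summed level was 1655 RPKM in knockout high fat, against 2583 RPKM in flox high fat, or 0.450% of the total, against 0.559%. Scaling matters more on this diet, since rescaling the groups to a median log2 ratio of 0 gave a median of all genes of 0.01, against -0.13 in the deposited values. After that rescaling 32 of 40 members were lower in knockout livers, and the median of the members differed from that of all genes by -0.38. With equal sums over all but the 50 most abundant genes 28 members were lower and 12 higher, and that difference was -0.37.

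**Figure D1:**
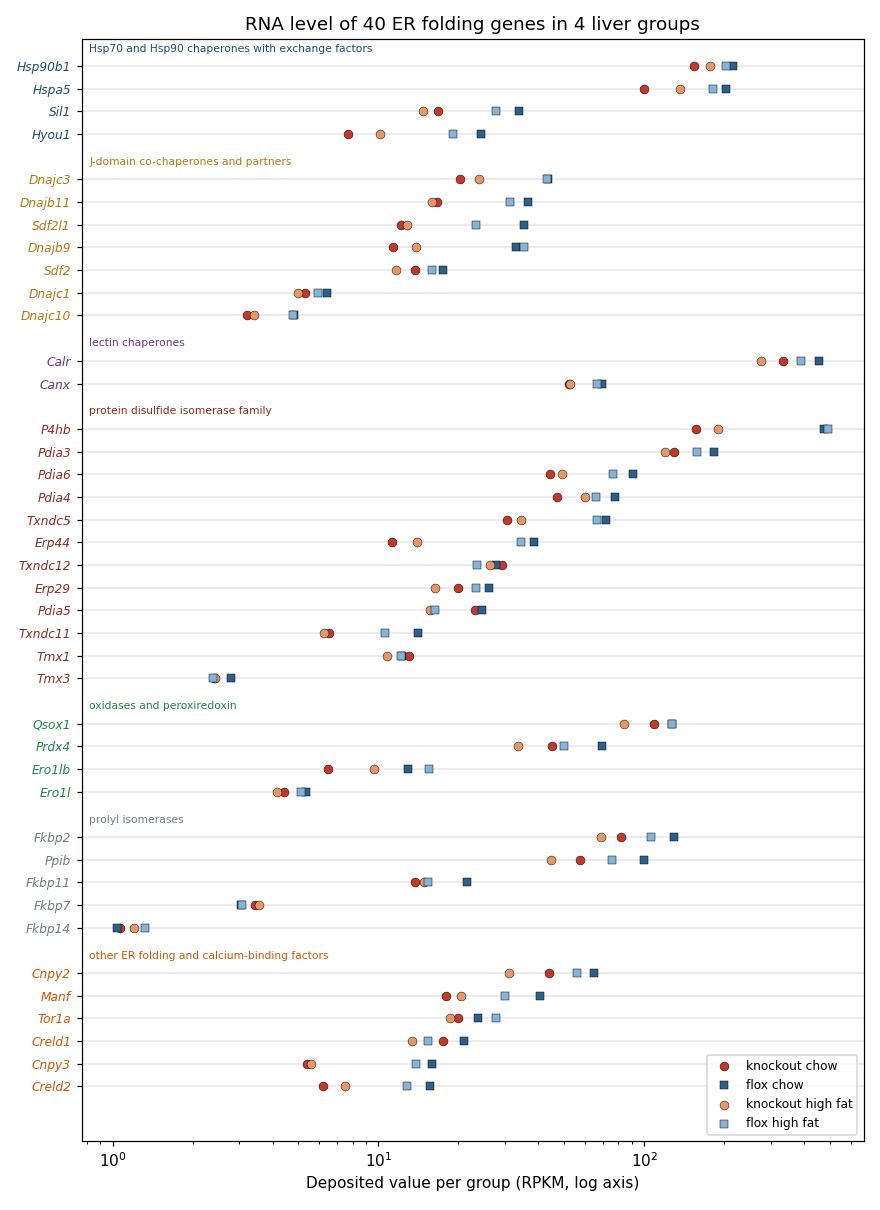
RNA level of each of the 40 members on a log axis, with knockout livers as circles (chow red, high fat orange) and flox livers as squares (chow dark blue, high fat light blue; 1 deposited RPKM value per gene and group, so no error bars). Genes are ordered by subclass and by their flox chow level. The circles lie left of the squares of the same diet for most genes, from P4hb (157 RPKM in knockout chow, against 476 RPKM in flox chow) to Creld2 (6.17 RPKM in knockout chow, against 15.6 RPKM in flox chow).

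The members span a wide range of levels. In flox chow livers P4hb (476 RPKM) and Calr (453 RPKM) were the highest, then Hsp90b1 (215 RPKM), Hspa5 (204 RPKM) and Pdia3 (182 RPKM), and Fkbp14 was the lowest (1.04 RPKM). The order at the top was not the same in knockout chow livers, where Calr (332 RPKM) stood above P4hb (157 RPKM) and Hsp90b1 (154 RPKM). Falls on chow were found at intermediate and high levels. Of 14 members with 30 to 100 RPKM in flox chow 8 fell, of 13 members with 10 to 30 RPKM 4 fell, of 7 members over 100 RPKM 2 fell, and of 6 members under 10 RPKM 0 fell. The pseudocount understates changes of the lowest members.

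Among the ER Hsp70 and Hsp90 chaperones and their exchange factors, Hspa5 and Hyou1 fell on chow. Hspa5 (mm10 chromosome 2, 34771970 to 34777547) encodes BiP, the Hsp70 of the ER, which also keeps the stress sensors inactive. It was listed at 99.8 RPKM in knockout chow, against 204 RPKM in flox chow (log2 change -1.02). Its values on high fat were 136 RPKM in knockout livers, against 181 RPKM in flox livers (-0.41). Hyou1 (mm10 chromosome 9, 44379490 to 44392369), a large Hsp70-like protein that exchanges nucleotide on BiP, was listed at 7.72 RPKM in knockout chow, against 24.2 RPKM in flox chow (-1.53), 31.9% of the flox level. On high fat Hyou1 stood at 10.2 RPKM in knockout livers, against 19.1 RPKM in flox livers (-0.85). Both genes were thus lower in knockout livers on either diet, by less on high fat. Sil1, the other exchange factor of BiP, was just short of the threshold at 16.8 RPKM in knockout chow, against 33.8 RPKM in flox chow (-0.97). On high fat Sil1 stood at 14.7 RPKM in knockout livers, against 27.7 RPKM in flox livers (-0.87). Hsp90b1, the ER Hsp90 known as GRP94, changed least of the subclass. It stood at 154 RPKM in knockout chow, against 215 RPKM in flox chow (-0.48), and at 176 RPKM in knockout high fat, against 204 RPKM in flox high fat (-0.21). Hsp90b1 shares 16.2% of its 36-base words with transcripts of other genes.

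Among 7 J-domain co-chaperones and partners, which bring substrates to BiP and stimulate its ATPase, 4 fell on chow. Dnajb9 (mm10 chromosome 12, 44205559 to 44210326), the co-chaperone ERdj4 that represses IRE1, fell on both diets. It was listed at 11.3 RPKM in knockout chow, against 32.9 RPKM in flox chow (log2 change -1.46), and at 13.9 RPKM in knockout high fat, against 35.4 RPKM in flox high fat (-1.29). Sdf2l1 (mm10 chromosome 16, 17130138 to 17132383), which forms a complex with ERdj3, stood at 12.2 RPKM in knockout chow, against 35.4 RPKM in flox chow (-1.46). On high fat Sdf2l1 stood at 12.9 RPKM in knockout livers, against 23.4 RPKM in flox livers (-0.81). The difference between the diets for Sdf2l1 lay mostly in the flox livers. Dnajb11, ERdj3 itself, stood at 16.6 RPKM in knockout chow, against 36.6 RPKM in flox chow (-1.10), and at 16.0 RPKM in knockout high fat, against 31.3 RPKM in flox high fat (-0.93). Dnajc3 stood at 20.2 RPKM in knockout chow, against 43.3 RPKM in flox chow (-1.06), and at 23.9 RPKM in knockout high fat, against 43.1 RPKM in flox high fat (-0.83). The other members of the subclass were below the threshold. Dnajc10, the reductase ERdj5, stood at 3.20 RPKM in knockout chow, against 4.81 RPKM in flox chow, and at 3.40 RPKM in knockout high fat, against 4.77 RPKM in flox high fat. Dnajc1, the membrane-bound ERdj1, stood at 5.29 RPKM in knockout chow, against 6.42 RPKM in flox chow, and at 5.0 RPKM in knockout high fat, against 5.93 RPKM in flox high fat. Sdf2, the close relative of Sdf2l1, stood at 13.7 RPKM in knockout chow, against 17.6 RPKM in flox chow, and at 11.6 RPKM in knockout high fat, against 16.0 RPKM in flox high fat.

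The lectin chaperones, which bind monoglucosylated glycans and retain glycoproteins until they fold, did not pass the threshold. Of all genes 1.37% fell on chow and 1.86% on high fat, so few calls were to be had among 2. Calr, calreticulin, stood at 332 RPKM in knockout chow, against 453 RPKM in flox chow (-0.45), and at 275 RPKM in knockout high fat, against 390 RPKM in flox high fat (-0.50). Canx, the membrane-bound calnexin, stood at 52.2 RPKM in knockout chow, against 69.6 RPKM in flox chow (-0.41), and at 52.7 RPKM in knockout high fat, against 66.4 RPKM in flox high fat (-0.33). Both hold an exact ERSE in their promoter windows. Their 4 genotype changes lay between -0.50 and -0.33.

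In the protein disulfide isomerase family 5 of 12 genes fell on chow, 2 of them also on high fat. Erp44 (mm10 chromosome 4, 48193323 to 48279558), which retains ERO1 and other clients by thiol bonds, had the lowest change of all members on chow. It was listed at 11.3 RPKM in knockout chow, against 38.6 RPKM in flox chow (log2 change -1.69, 29.2% of the flox level). On high fat Erp44 stood at 14.0 RPKM in knockout livers, against 34.3 RPKM in flox livers (-1.24). P4hb (mm10 chromosome 11, 120560298 to 120573253) encodes the founding isomerase, which is also a subunit of prolyl 4-hydroxylase and of the microsomal triglyceride transfer protein. It stood at 157 RPKM in knockout chow, against 476 RPKM in flox chow (-1.60, 32.9% of the flox level), and at 189 RPKM in knockout high fat, against 491 RPKM in flox high fat (-1.37). P4hb had the lowest change of all members on high fat. Txndc5 stood at 30.4 RPKM in knockout chow, against 71.8 RPKM in flox chow (-1.21), and at 34.5 RPKM in knockout high fat, against 66.5 RPKM in flox high fat (-0.93). Pdia6 stood at 44.1 RPKM in knockout chow, against 91.0 RPKM in flox chow (-1.03), and at 49.0 RPKM in knockout high fat, against 76.3 RPKM in flox high fat (-0.63). Txndc11, a membrane-bound family member, stood at 6.5 RPKM in knockout chow, against 14.1 RPKM in flox chow (-1.01), and at 6.24 RPKM in knockout high fat, against 10.6 RPKM in flox high fat (-0.68). Pdia6 and Txndc11 were close to the threshold on chow.

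The other 7 isomerase family genes did not pass the threshold on either diet. Pdia4, the abundant isomerase ERp72, stood at 47.1 RPKM in knockout chow, against 77.6 RPKM in flox chow (-0.71), and at 59.6 RPKM in knockout high fat, against 65.7 RPKM in flox high fat (-0.14). Pdia3, ERp57, the partner of the lectin chaperones, stood at 129 RPKM in knockout chow, against 182 RPKM in flox chow (-0.49), and at 119 RPKM in knockout high fat, against 159 RPKM in flox high fat (-0.41). Its changes thus lay near those of calreticulin and calnexin. Erp29, a family member without an active-site cysteine pair, stood at 19.8 RPKM in knockout chow, against 26.0 RPKM in flox chow, and at 16.3 RPKM in knockout high fat, against 23.3 RPKM in flox high fat. Erp29 overlaps Naa25 on the opposite strand over 24.4% of its exon bases, which leaves its value uncertain. Pdia5 stood at 23.1 RPKM in knockout chow, against 24.6 RPKM in flox chow, and at 15.6 RPKM in knockout high fat, against 16.3 RPKM in flox high fat. For Pdia5 the values thus differed by diet and hardly by genotype. Txndc12, the small thioredoxin-like ERp18, was higher in knockout livers on either diet. It stood at 29.2 RPKM in knockout chow, against 27.6 RPKM in flox chow, and at 26.3 RPKM in knockout high fat, against 23.6 RPKM in flox high fat. The membrane-bound Tmx1 stood at 13.0 RPKM in knockout chow, against 12.3 RPKM in flox chow, and at 10.8 RPKM in knockout high fat, against 12.1 RPKM in flox high fat. Its relative Tmx3 was low throughout, at 2.4 RPKM in knockout chow, against 2.78 RPKM in flox chow, while on high fat it had 2.42 RPKM in knockout livers, against 2.38 RPKM in flox livers.

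**Figure D2:**
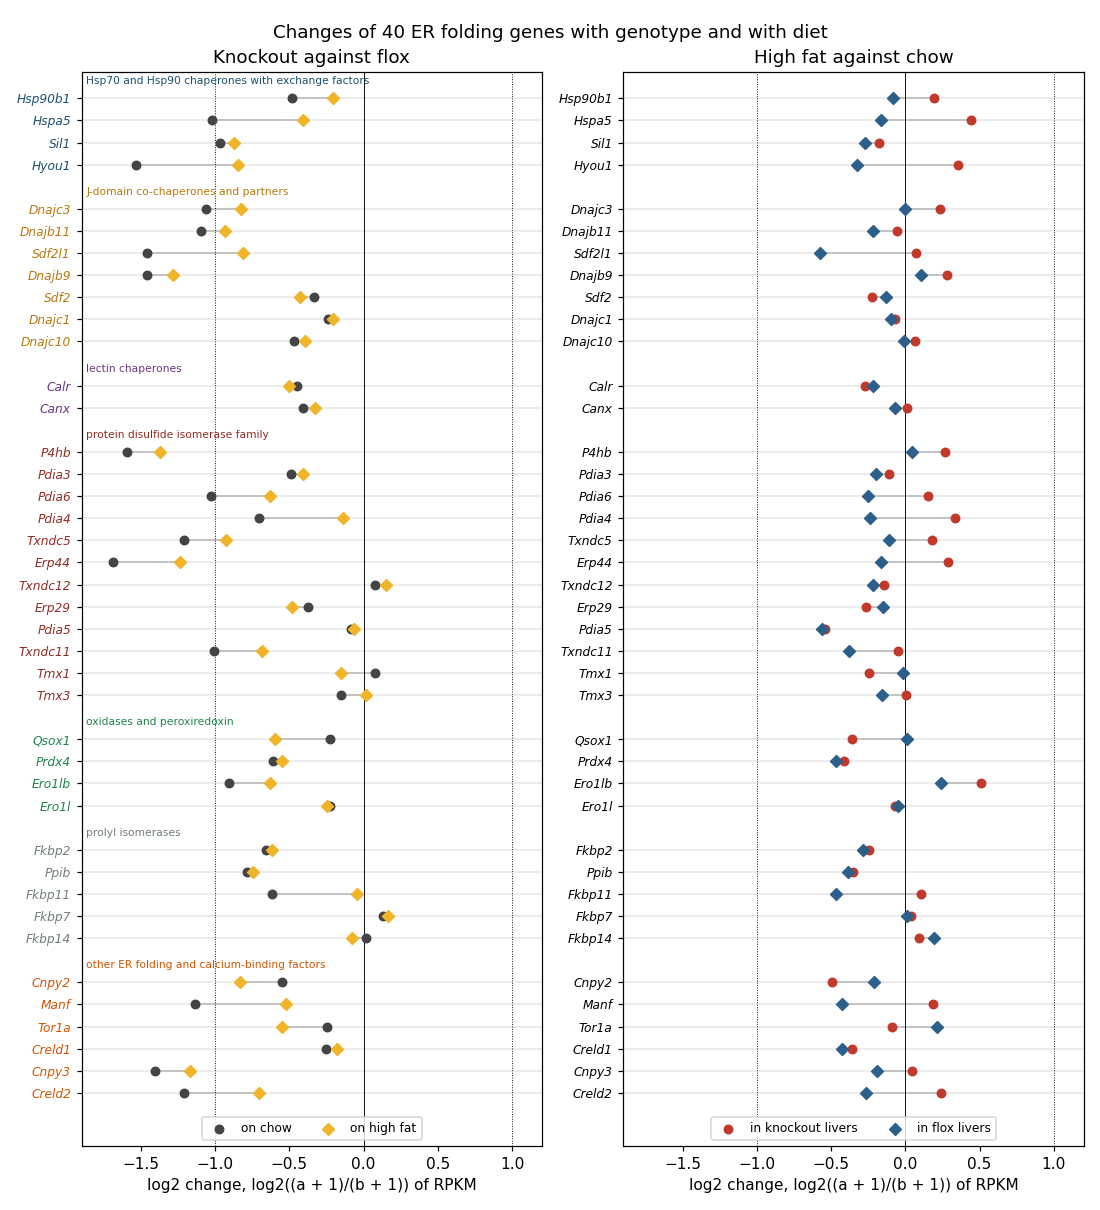
Log2 change of each member between genotypes (left, knockout against flox, on chow as circles and on high fat as diamonds) and between diets (right, high fat against chow, in knockout livers as circles and in flox livers as diamonds). Dotted lines mark changes of -1 and 1. Left, 14 circles and 4 diamonds lie at or below -1 and none at 1; right, all points lie between the dotted lines, with most diamonds left of 0.

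None of the oxidases and the peroxiredoxin passed the threshold. Of all genes 1.37% fell on chow and 1.86% on high fat, so few calls were to be had among 4. The median of the 4 was -0.42 on chow and -0.57 on high fat, beside -0.61 and -0.54 for all members. The ERO1 oxidases and the ER peroxiredoxin pass electrons from the isomerases to oxygen or peroxide. Ero1lb, the ERO1 oxidase known for its role in insulin-producing cells, came closest, with 6.45 RPKM in knockout chow, against 13.0 RPKM in flox chow (-0.91), while on high fat it had 9.62 RPKM in knockout livers, against 15.5 RPKM in flox livers (-0.63). Ero1l, the other ERO1 oxidase, stood at 4.42 RPKM in knockout chow, against 5.34 RPKM in flox chow (-0.23), and at 4.17 RPKM in knockout high fat, against 5.13 RPKM in flox high fat (-0.25). Prdx4, the ER peroxiredoxin, stood at 45.1 RPKM in knockout chow, against 69.3 RPKM in flox chow (-0.61), and at 33.6 RPKM in knockout high fat, against 49.8 RPKM in flox high fat (-0.55). All 3 were lower in knockout livers on both diets. Qsox1, a secreted sulfhydryl oxidase, stood at 108 RPKM in knockout chow, against 127 RPKM in flox chow (-0.22). On high fat the genotypes differed more, with 84.1 RPKM in knockout livers, against 128 RPKM in flox livers (-0.60).

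No prolyl isomerase passed the threshold on either diet. Of all genes 1.37% fell on chow and 1.86% on high fat, so few calls were to be had among 5. The median of the 5 was -0.62 on chow and -0.08 on high fat, beside -0.61 and -0.54 for all members. Ppib, cyclophilin B, stood at 57.3 RPKM in knockout chow, against 99.5 RPKM in flox chow (-0.78), and at 44.7 RPKM in knockout high fat, against 75.7 RPKM in flox high fat (-0.75). Ppib shares 59.0% of its 36-base words with annotated transcripts of other genes, chiefly Snx22 on the opposite strand, and the sources used here name no strand setting, so its value is uncertain. Fkbp2 stood at 81.4 RPKM in knockout chow, against 129 RPKM in flox chow (-0.66), and at 68.5 RPKM in knockout high fat, against 106 RPKM in flox high fat (-0.62). Fkbp11, a membrane-anchored isomerase abundant in secretory tissue, stood at 13.7 RPKM in knockout chow, against 21.6 RPKM in flox chow (-0.62), and at 14.8 RPKM in knockout high fat, against 15.3 RPKM in flox high fat (-0.04). The remaining pair, Fkbp7 and the collagen-folding isomerase Fkbp14, was low. Fkbp7 stood at 3.43 RPKM in knockout chow, against 3.05 RPKM in flox chow, and at 3.55 RPKM in knockout high fat, against 3.07 RPKM in flox high fat. Fkbp14 stood at 1.06 RPKM in knockout chow, against 1.04 RPKM in flox chow, and at 1.2 RPKM in knockout high fat, against 1.33 RPKM in flox high fat.

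Of the 6 other folding factors 3 fell on chow. Cnpy3 (mm10 chromosome 17, 46735705 to 46752214), a co-chaperone of GRP94 for Toll-like receptors, fell on both diets. It was listed at 5.39 RPKM in knockout chow, against 15.9 RPKM in flox chow (log2 change -1.40), and at 5.58 RPKM in knockout high fat, against 13.8 RPKM in flox high fat (-1.17). Creld2 stood at 6.17 RPKM in knockout chow, against 15.6 RPKM in flox chow (-1.21), and at 7.48 RPKM in knockout high fat, against 12.9 RPKM in flox high fat (-0.71). Manf, a secreted stress-induced protein that binds BiP, stood at 17.9 RPKM in knockout chow, against 40.6 RPKM in flox chow (-1.14), and at 20.5 RPKM in knockout high fat, against 29.9 RPKM in flox high fat (-0.52). Creld2 and Manf thus passed the threshold on chow and not on high fat. Cnpy2 stood at 43.9 RPKM in knockout chow, against 64.9 RPKM in flox chow (-0.55), and at 30.9 RPKM in knockout high fat, against 55.9 RPKM in flox high fat (-0.83). Creld1, the relative of Creld2, stood at 17.5 RPKM in knockout chow, against 21 RPKM in flox chow (-0.25), and at 13.4 RPKM in knockout high fat, against 15.3 RPKM in flox high fat (-0.18). Tor1a, the AAA ATPase torsinA, stood at 19.9 RPKM in knockout chow, against 23.8 RPKM in flox chow (-0.25), and at 18.6 RPKM in knockout high fat, against 27.7 RPKM in flox high fat (-0.55). Cnpy2 and Tor1a differed more between genotypes on high fat than on chow, unlike most members.

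Some related members changed differently and others did not. The level of Sdf2l1 was 0.887 times that of Sdf2 in knockout chow, against 2.01 times in flox chow. For Creld2 over Creld1 the ratio was 0.353 in knockout chow, against 0.745 in flox chow. Ero1lb stood at 1.46 times Ero1l in knockout chow, against 2.43 times in flox chow. All 3 ratios were lower in knockout livers on high fat as well. There Sdf2l1 over Sdf2 was 1.11 in knockout, against 1.46 in flox livers, Creld2 over Creld1 was 0.559 in knockout, against 0.840 in flox livers, and Ero1lb over Ero1l was 2.31 in knockout, against 3.02 in flox livers. A further 3 pairs had unlike changes on both diets. The knockout change of Dnajc3 less that of Dnajc1 was -0.83 on chow and -0.62 on high fat, that of Hyou1 less Hspa5 was -0.51 on chow and -0.44 on high fat, and that of Cnpy2 less Cnpy3 was 0.85 on chow and 0.34 on high fat. Other pairs were close on chow. Calr over Canx was 6.36 in knockout chow, against 6.51 in flox chow, and Fkbp11 over Fkbp2 was 0.168 in knockout chow, against 0.167 in flox chow. On high fat Fkbp11 over Fkbp2 was 0.217 in knockout livers, against 0.145 in flox livers. The change of Fkbp14 less that of Fkbp7 was -0.11 on chow and -0.24 on high fat. For Pdia4 less Pdia3 (-0.21 on chow, 0.27 on high fat) and Tmx1 less Tmx3 (0.23 on chow, -0.17 on high fat) the sign differed between the diets. Sdf2 shares 16.8% of its 36-base words with Supt6 on the opposite strand and Ero1lb 15.5% with the predicted gene Gm18562, so part of these ratios is uncertain.

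The promoter elements shown above were set against the changes of their genes, as a description. Of the 12 members with an ERSE, ERSE-II or UPRE core 7 fell on chow, and of the 23 without 5 fell. After rescaling without the 50 most abundant genes, Txndc5 and Creld2 were left of the former. Dnajb9, Sdf2l1, P4hb, Erp44 and Cnpy3 were left of the latter. With a pseudocount of 5 the fall of Creld2 was not reached either, so the order of these counts depends on the setting. On high fat 0 of the 12 and 4 of the 23 fell. The medians kept the same order on both diets. They were -1.02 with and -0.47 without an element on chow, and -0.63 with and -0.43 without on high fat. For the exact ERSE the medians on high fat were -0.57 in the 8 members with it and -0.55 in the 27 without. Among the other genes tested, 5 of 275 with at least 1 of the elements fell on chow, and 92 of 7919 without. On high fat 2 of 275 such genes with an element fell, and 135 of 7921 without. Each of the 12 members that fell on chow and have a window holds CCACG, and 0 of the 8 members without it fell. These 8, Pdia3, Dnajc10, Sdf2, Creld1, Tor1a, Qsox1, Txndc12 and Tmx1, had a median change of -0.25, beside -0.78 in the 27 members with CCACG. This stretch is common. Among the other genes tested the median was -0.02 both with and without it, and the falls went the other way, with 35 of 4283 genes that hold it and 62 of 3911 that do not. The split of the members was not particular to CCACG. Of 26 members with CCAAT, the other end of the ERSE, 11 fell on chow, and of 9 without it 1 fell. The medians were -0.75 and -0.24. Of the other genes tested, 49 of 3517 with CCAAT fell and 48 of 4677 without. Of the members with a window, those with the lowest changes on chow were Erp44, P4hb, Sdf2l1 and Dnajb9. These hold CCACG and no exact match to the longer elements in their windows. Hyou1 (-1.53 on chow), Manf, Sil1, Erp29 and Tmx3 have no window and were not searched. Allowing 1 mismatch in the ERSE raised the number of members with it to 13 and the share of all genes to 1.72%. It added Pdia3, Pdia4, Erp44, Fkbp2 and Creld1, of which Erp44 fell, and 5 of the 13 members with this looser match fell on chow, beside 7 of the 22 without.

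**Figure D3:**
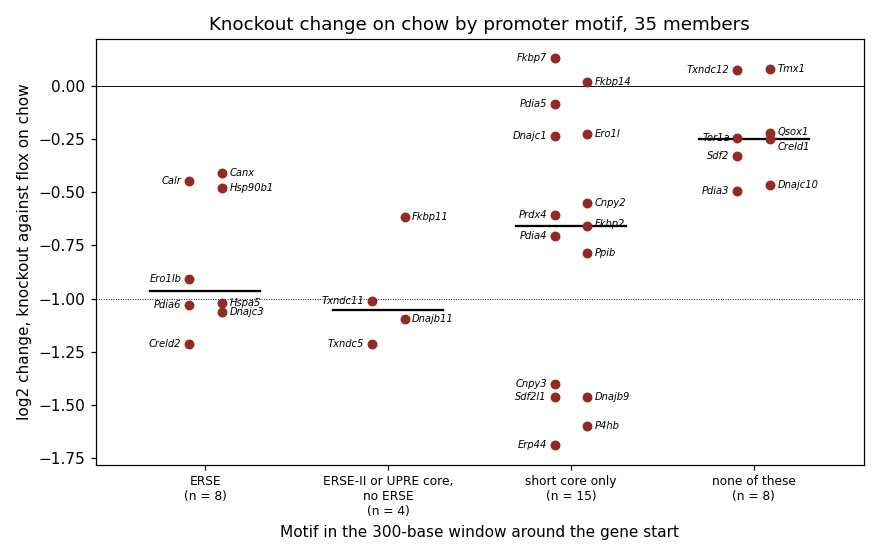
Log2 change between knockout and flox livers on chow for the 35 members with a promoter window, by the element found in it, where the short core is CCACG. Each point is 1 gene, the bar is the median of its class and the dotted line marks -1. The 8 genes with no longer element and no CCACG, of which Pdia3, Txndc12 and Creld1 hold CCAAT, lie between -0.49 and 0.08, all above the dotted line.

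Other genes of ER folding, from a list of 55 that are not members, were lower by less. Members and lists were chosen with earlier results of these data known, so the contrasts here are descriptions only. In flox chow the 55 summed to 937 RPKM, against 2872 RPKM for the 40 members, and the pseudocount understates changes of low genes. On chow 46 of the 55 could be compared, of which 2 fell and 0 rose (median -0.15), beside 14 of 40 members (median -0.61). Nucb2, which encodes the calcium-binding nucleobindin, stood at 0.869 RPKM in knockout chow, against 3.27 RPKM in flox chow (-1.19). Uggt1, the folding sensor that reglucosylates misfolded glycoproteins for calnexin and calreticulin, stood at 2.81 RPKM in knockout chow, against 6.81 RPKM in flox chow (-1.04). On high fat 0 of the 46 fell or rose (median -0.25, all genes -0.13). Chaperones and redoxins of cytosol and mitochondria did not follow the ER members. Of 53 such genes 0 passed the threshold on either diet. Of all genes 1.37% fell and 0.252% rose on chow, and 1.86% fell and 1.07% rose on high fat, so few calls were to be had among 53. The medians of the 53 were 0.02 on chow and -0.14 on high fat, near those of all genes (-0.02 and -0.13).

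Among 17 sensors and transcription factors of the unfolded protein response that could be compared, Xbp1 and Ppp1r15b fell on chow and 0 rose. Ppp1r15b, a phosphatase subunit that reverses the block of translation, stood at 6.72 RPKM in knockout chow, against 15.1 RPKM in flox chow (-1.06). On high fat Xbp1 fell, and Ddit3, Trib3 and Atf3, which lie downstream of ATF4, rose. Atf3 passed the filter on low values only through knockout high fat, the group where it is high, so its rise is tied to that filter. Trib3, a pseudokinase, stood at 7.62 RPKM in knockout high fat, against 2.78 RPKM in flox high fat (1.19), and the transcription factor Atf3 at 2.38 RPKM in knockout high fat, against 0.507 RPKM in flox high fat (1.17). Ddit3, the gene of CHOP, stood at 18 RPKM in knockout high fat, against 4.99 RPKM in flox high fat (1.67). In the same comparison 37 of the 40 folding genes had a lower value in knockout livers.

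The knockout changes on the 2 diets can be set side by side, since these comparisons share no group. Across the 40 members the changes had a Pearson r of 0.86 and a Spearman rho of 0.83, and across 10319 genes 0.61 and 0.55. These are descriptions across genes, which are not independent replicates, and all 4 groups share any bias of annotation and length. The knockout change on high fat, less that on chow, was above 0 for 31 of 40 members (median 0.09) and below 0 for 67.9% of all genes (median -0.10). With the groups scaled to equal medians the median of the members was 0.22, beside 0.01 for all genes. With equal sums over all but the 50 most abundant genes it was 0.24, beside 0.03 for all genes. None passed the threshold, beside 0.659% of 10319 genes above it and 0.572% below the negative one. The highest differences were those of Hyou1 (0.68), Sdf2l1 (0.65), Manf (0.61), Hspa5 (0.61), Fkbp11 (0.57) and Pdia4 (0.57). The lowest were those of Qsox1 (-0.37), Tor1a (-0.30) and Cnpy2 (-0.28).

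**Figure D4:**
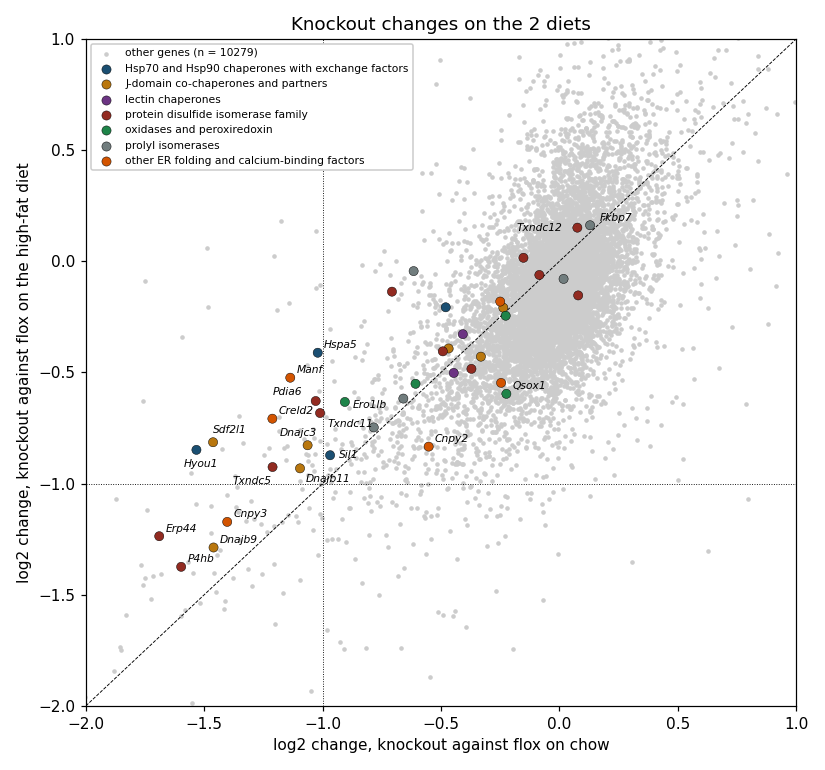
Log2 change of knockout against flox livers on chow (horizontal) and on the high-fat diet (vertical) for the 40 members, coloured by subclass, over 10279 other genes in grey, of which 144 lie outside the axes. The dashed line marks equal changes and the dotted lines -1. Members past -1 on chow lie above the dashed line, from Txndc11 (-1.01 on chow and -0.68 on high fat) to Erp44 (-1.69 on chow and -1.24 on high fat). These members were picked by their low chow values, which by itself favours a place above the line, so their position is a description only.

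Diet alone moved the members less than genotype. In flox livers 33 of 40 members had a lower value on high fat than on chow (52.5% of all genes), with a median of -0.18 and 0 past the threshold, beside 0.426% of 10322 genes that fell and 0.213% that rose. Sdf2l1, at 23.4 RPKM in flox high fat, against 35.4 RPKM in flox chow (-0.58), and Pdia5, at 16.3 RPKM in flox high fat, against 24.6 RPKM in flox chow (-0.56), had the lowest changes. Prdx4 (-0.47), Fkbp11 (-0.47), Creld1 (-0.43) and Manf (-0.43) came next. Ero1lb (0.24), Tor1a (0.21) and Fkbp14 (0.19) were the highest. After rescaling without the 50 most abundant genes 25 members were lower and 15 higher, with a median of -0.06, beside 0.09 for all genes.

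In knockout livers the members were divided by diet. There 21 of 40 had a higher value on high fat than on chow and 19 a lower one, with a median of 0.01, where the median of all genes was -0.11 and 66.4% were lower. None passed the threshold, beside 0.668% of 10328 genes that rose and 0.794% that fell. Ero1lb, at 9.62 RPKM in knockout high fat, against 6.45 RPKM in knockout chow (0.51), Hspa5 (0.44), Hyou1 (0.36) and Pdia4 (0.33) had the highest changes. Pdia5, at 15.6 RPKM in knockout high fat, against 23.1 RPKM in knockout chow (-0.54), Cnpy2 (-0.49), Prdx4 (-0.41) and Qsox1 (-0.36) had the lowest. Pdia5 and Prdx4 thus had lower values on high fat in either genotype. Hspa5, Hyou1 and Pdia4 had higher values on high fat in knockout livers and lower ones in flox livers. The split of signs in knockout livers moved with the scaling, to 27 higher and 13 lower after rescaling to a median ratio of 0 and to 34 higher and 6 lower after rescaling without the 50 most abundant genes. Under all 3 scalings the median of the members lay above that of all genes, by 0.11 to 0.12. The diet comparisons each share a group with a genotype comparison and are not independent of it.

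Markers of other cells moved with some of these groups. Of the cholangiocyte markers Spp1 alone stood at 103 RPKM in knockout high fat, against 20.6 RPKM in flox high fat, and at 39.4 RPKM in knockout chow, against 19.7 RPKM in flox chow, and it makes up most of their sum. Over all 10 the summed level was 124 RPKM in knockout high fat, against 30.1 RPKM in flox high fat. On chow it was 51.9 RPKM in knockout livers, against 28.9 RPKM in flox livers. Of 8 compared markers 4 rose on high fat (Spp1, Tspan8, Cd24a and Epcam) and 0 on chow. All 8 had a higher value in knockout livers on either diet, with medians of 1.04 on high fat and 0.34 on chow. Tspan8 and Epcam passed the filter only through knockout livers, where they are high, so these counts are no support. Of all genes 1.07% rose and 1.86% fell on high fat, and 0.252% rose and 1.37% fell on chow. Macrophage markers summed to 459 RPKM in knockout high fat, against 335 RPKM in flox high fat, and to 283 RPKM in knockout chow, against 293 RPKM in flox chow. Of 12 macrophage markers 0 rose on either diet. All 12 had a higher value in knockout livers on high fat (median 0.38), and on chow 5 were higher and 7 lower. For 10 stellate cell markers the sums were 173 RPKM in knockout high fat, against 102 RPKM in flox high fat, and 132 RPKM in knockout chow, against 104 RPKM in flox chow, with 2 of 9 rising on high fat (Col3a1 and Col1a1). Hepatocyte markers summed to 31695 RPKM in knockout high fat, against 51885 RPKM in flox high fat, and to 42680 RPKM in knockout chow, against 58632 RPKM in flox chow. Of 14 compared, 12 were lower in knockout livers on either diet, with medians of -0.59 on high fat and -0.36 on chow, beside -0.54 and -0.61 for the ER folding genes. Among them Cyp2e1, Apoa1 and Cps1 fell on high fat and Cyp2e1 on chow, and Alb was listed at 0 in all groups. Their part in the results above was not tested. Sums over endothelial markers lay between 89.5 and 97.5 RPKM, over plasma and B cell markers between 45.8 and 53.4 RPKM and over neutrophil and T cell markers between 6.98 and 9.10 RPKM in the 4 groups. Of these, Derl3, a plasma cell marker that is also an ER degradation gene, fell on chow, with 2.92 RPKM in knockout chow, against 7.42 RPKM in flox chow (-1.10). On high fat Derl3 was higher in knockout livers, short of the threshold, with 9.95 RPKM in knockout high fat, against 4.82 RPKM in flox high fat (0.91), and its knockout change on high fat less that on chow was 2.02. Of 14 exocrine pancreas markers 10 or 11 were listed at 0, Prss1, Cpa1 and Pnlip among them, and the rest summed to 4.16 to 13.0 RPKM. Since Alb is listed at 0 as well, a 0 in these files does not show that a gene was absent.

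Some calls rest on the scaling. On chow the falls of Hspa5, Pdia6 and Txndc11 were lost after rescaling to a median ratio of 0, which left 11 of 14, and those of Dnajb11, Dnajc3 and Manf too after rescaling without the 50 most abundant genes, which left 8. Of all genes 1.37% fell on chow in the deposited values, 1.24% after the first rescaling and 0.988% after the second. On high fat 1 of the 4 falls, that of P4hb, passed after the second rescaling. Among all genes that rescaling moved the split of rises and falls to 193 and 90 on high fat, where the deposited values gave 111 and 192.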

How the data were processed

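RNA of mouse liver was sequenced in 8 libraries, 2 pools from 4 mice in each of 4 groups. The authors deposited 1 file per group with 1 RPKM value per gene, per the file headers; files were assigned to groups by the part of the sample titles in their names. The submitters' processing notes list TopHat2 2.0.7, Cuffdiff 2.1.1 and mm10 without saying what each was used for. How libraries were annotated, scaled, combined and read by strand is not given in the sources used here. Depth is unknown: between 15.9% and 19.0% of low values times transcript length were whole multiples of a step (tolerance 0.05 of a step, up to 5 steps), too few to recover reads, so no counting interval is given. Values per library were not analysed here.

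Rows with a repeated symbol (158 of 22923 symbols, no member) were summed. Genes reaching 1 RPKM in any group were kept (10351 genes, all 40 members), and a gene listed at 0 in a compared group was left out of that comparison, since Alb was listed at 0 throughout. The change was log2((a + 1)/(b + 1)), past the threshold at 2-fold. There was no test. Members, subclasses, gene lists, pairs and motifs were chosen with earlier results of these data known. All members are named; of other lists, up to 8 genes past the threshold with the largest change in a comparison. Promoter windows and symbols came from RefSeq, coordinates and transcript sequences from GENCODE M21 on GRCm38. Exons of 16 members overlap another annotated gene, over more than 10% of their bases in 4. Calculations used Python 3.11.15, numpy 2.4.6, pandas 2.3.3, scipy 1.17.1 and matplotlib 3.10.9, and the calling and motif steps were tested on simulated data. The alternatives were other pseudocounts, filters, thresholds, scalings, treatments of repeated rows and of zeros, and a mismatch in the ERSE.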

Additional observations from a re-analysis of the deposited data

How the results depend on the processing

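With 1 value per group, precision is set by an unknown spread between libraries, and differences close to 2-fold cannot be ranked. The number of members past the threshold on chow, 14, was 21 at a threshold of 1.5-fold, 7 with a pseudocount of 5 and 8 after rescaling with the 50 most abundant genes left out. Of all genes 1.37% fell on chow as reported, and 3.84%, 0.843% and 0.988% under these 3 settings. On high fat the number of members was 4, against 18 at a threshold of 1.5-fold and 1 after that rescaling. Of all genes 1.86% fell on high fat as reported, 8.33% at 1.5-fold and 0.855% after that rescaling. For the difference of the knockout changes the number of members was 0, and 4 at 1.5-fold (Hyou1, Sdf2l1, Manf and Hspa5, all above 0). At 1.5-fold 2.32% of all genes lay above the threshold for this difference and 3.03% below the negative one. Under the other settings tried these 3 counts moved by less than 1.5 times, and the counts for diet were 0 under all 9 alternatives. With 1 mismatch allowed in the ERSE, 13 members held it, against 8 with none. Over the alternatives the median of the members ran between -0.68 and -0.47 on chow and between -0.57 and -0.24 on high fat. It changed sign for diet in knockout livers, between -0.05 and 0.24, and ran between -0.21 and -0.06 for diet in flox livers and between 0.08 and 0.24 for the difference of the knockout changes. No member past the threshold changed direction. No paired analysis was possible because the files hold 1 value per gene and group, and no replicate could be left out for the same reason.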
